A study of Mus musculus with 11 samples.

Results

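Described here are 7 mouse genes that run the SREBP system or are switched on by it without being lipid enzymes of the sterol pathway: Srebf1, Srebf2, Scap, Insig1, Insig2, Stard4 and Rdh11. They were taken by symbol, with every probe of the Illumina BeadChip that carries one of these symbols. That gave 15 of the 45281 probes, and 13 of the 15 were detected on all 11 arrays, where detected means a detection p-value under 0.05. The remaining probes, 1 of Srebf1 and 1 of Insig1, were detected on 0 of 11 arrays and give no value. All 7 genes were therefore tested, among 15469 genes in all, each by its brightest probe. The labels and column headers do not say which transcript or genome position a probe reads.

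The arrays hold liver RNA of male C57BL/6J mice, labelled as 8 weeks old in every group. All mice carried an adenovirus for FXR, the nuclear receptor that bile acids activate (gene Nr1h4), and about a week after infection all were given GW4064, its synthetic agonist, at 30 mg/kg overnight, with corn oil as the vehicle. In lean mice the virus carried FXR-WT (2 arrays) or the mutant FXR-K217Q (3 arrays), where glutamine in place of a lysine stands in for its acetylated form. In obese mice it carried FXR-WT (3 arrays) or the mutant FXR-K217R (3 arrays), where arginine keeps the site from being acetylated. No mutant was expressed in both states, and no group went without agonist or without virus. The titles mark the obese and lean arrays as HFD and ND, and the diet is not described further. The labels do not name a knockout host, and the sources used here do not say whether the Nr1h4 probe reads the virus's transcript or the mouse's own. Nor do they say whether replicates are separate animals, and a p-value here takes in only the variation among the arrays at hand, which may be technical.

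SREBPs are transcription factors made as precursors in the membrane of the endoplasmic reticulum. Scap escorts them to the Golgi, where proteases free the active part, and Insig proteins hold Scap back when sterols are plentiful. SREBP-2, from Srebf2, mainly drives cholesterol synthesis and uptake, and SREBP-1c, the main liver product of Srebf1, drives fatty acid synthesis under insulin and the oxysterol receptor LXR. Srebf2 and Insig1 are themselves SREBP targets, so their transcripts are often read as a sign of SREBP activity. The arrays measure transcripts only, not the cleavage of the proteins. In bulk liver, fewer cells of a type and less RNA per cell cannot be told apart.

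Values below are log2 intensities after background correction and quantile normalization, and changes are differences of group means on that scale. A gene passed where limma's adjusted p over all 15469 genes was under 0.05. On each array 18263 to 19500 probes were detected, read by 41.9 to 44.0 beads per probe on average. Hepatocyte markers were measured for 6 of 6 genes, with a summed log2 level of 16.05 to 16.38 over all arrays, and of 3 adipocyte markers 0 were detected well enough to be tested. Within their groups 2 arrays stand apart. The transcript of the clock output gene Dbp read 10.45 on lean FXR-K217Q replicate 3 and 10.74 on obese FXR-WT replicate 1, and 12.67 to 12.88 on the other arrays of both groups. Dbp was 11.32 and 11.71 in lean FXR-WT and 12.71 to 13.27 in obese FXR-K217R livers. Results that rest on those arrays are also given without them.

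**Figure D1:**
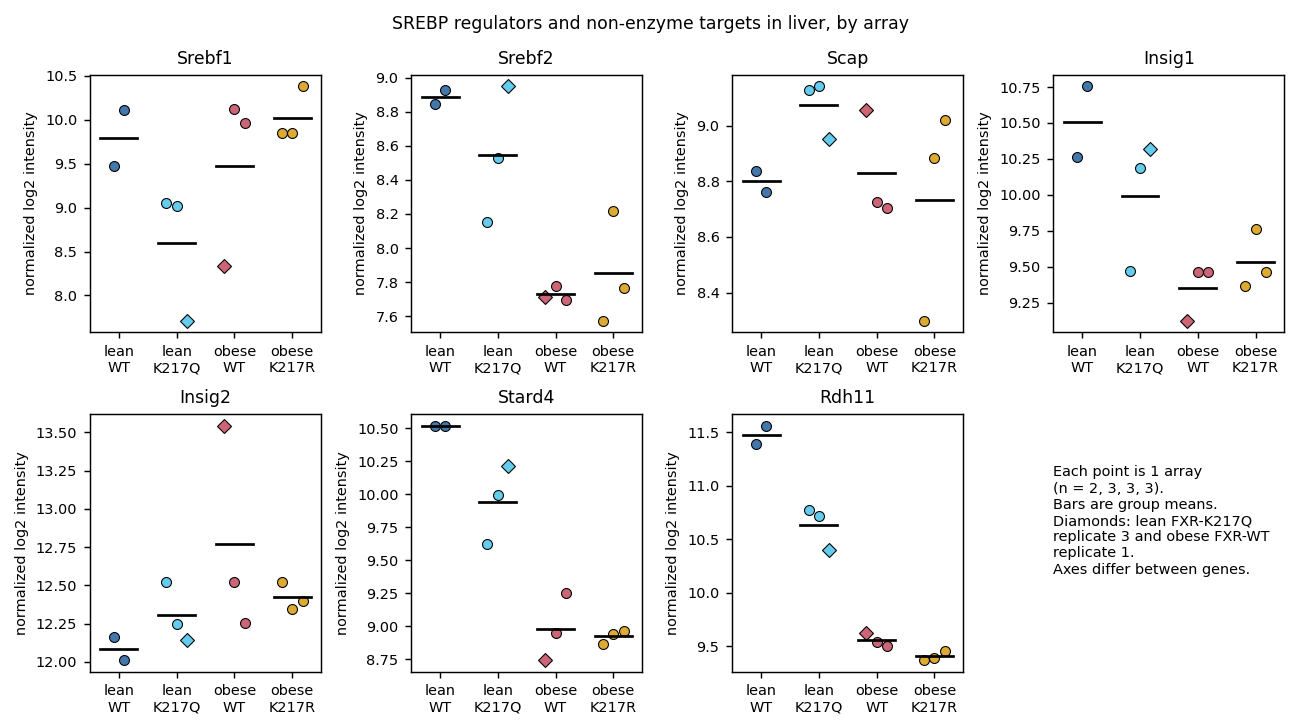
Normalized log2 intensity of each gene's brightest probe on each of the 11 arrays, by group, with bars at the group means and diamonds for lean FXR-K217Q replicate 3 and obese FXR-WT replicate 1. Srebf2, Insig1, Stard4 and Rdh11 lie lower in both obese groups than in lean FXR-WT, and the lowest Srebf1 values (7.71 and 8.34) are both diamonds.

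Obese and lean livers were first compared with FXR-WT in both. Srebf2, Stard4 and Rdh11 fell in obese livers, with changes of -1.16, -1.54 and -1.92, and Insig1 changed by -1.16 without passing on its brightest probe. Srebf1 and Scap gave small changes that did not pass (-0.32 and 0.029), and Insig2 had the largest positive value, 0.69, also short of the threshold and 0.30 without obese FXR-WT replicate 1. So 3 of 7 genes passed, all lower, where 1.2% of all genes passed and 0.511% passed as lower. The median change of the 7 was -1.16, beside -0.00068 for all genes.

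Rdh11, a retinol dehydrogenase of the endoplasmic reticulum, had the largest change of the 7. Its level was 11.39 and 11.56 in lean FXR-WT livers and 9.63, 9.54 and 9.50 in obese FXR-WT livers. The groups lay far apart, with under 0.2 between arrays of a group. The fall of 1.92 (SE 0.14, limma adjusted p = 0.000111), or 3.78-fold, had the fifth smallest p-value of all genes. The other probe of Rdh11 fell by 2.05 (SE 0.18, adjusted p = 0.000307 over all probes).

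Stard4, a cytosolic carrier that moves cholesterol between membranes, stood at 10.52 on both lean FXR-WT arrays and at 8.75, 8.95 and 9.25 on the obese FXR-WT arrays. The 3 obese arrays spread over 0.51 and none came near the lean level. The fall was 1.54 (SE 0.19, limma adjusted p = 0.00372), or 2.90-fold. Without lean FXR-WT replicate 2 it was 1.53 and the adjusted p rose to 0.0561.

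Srebf2 had levels of 8.85 and 8.93 in lean and 7.71, 7.78 and 7.69 in obese FXR-WT livers. Both groups were tight and did not overlap. The fall was 1.16 (SE 0.23), or 2.23-fold, just past the threshold (limma adjusted p = 0.0428). The dimmer second probe read 7.51 and 7.52 against 7.15, 6.74 and 7.09, also without overlap, a change of -0.52 (SE 0.24) with adjusted p = 0.394 over all probes. The call is fragile: the change kept its size without any single array (-1.20 to -1.12), but the adjusted p was over the threshold in 7 of 11 such fits. It was 0.16 and 0.382 without lean FXR-WT replicates 1 and 2, 0.0813, 0.118 and 0.125 without obese FXR-WT replicates 1, 2 and 3, 0.0656 without lean FXR-K217Q replicate 2 and 0.0694 without obese FXR-K217R replicate 3.

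The Srebf2 start is shown because it alone among the genes with a RefSeq promoter window held TCACNCCA. This is the core of the sterol regulatory element, to which SREBPs bind, without its last base. Stretches that differ from the core at another base were not searched for, and a window of Insig2 holds such a stretch. Windows run from 250 bases before to 50 after each start (build GRCm38.p6), and 12 windows of 6 genes, all but Stard4, were searched on both strands. The 250 bases before the start are on chr15:82147019-82147268, forward strand, with the matches to TCACNCCA, CCAAT and CACGTG on either strand in capitals:
Srebf2: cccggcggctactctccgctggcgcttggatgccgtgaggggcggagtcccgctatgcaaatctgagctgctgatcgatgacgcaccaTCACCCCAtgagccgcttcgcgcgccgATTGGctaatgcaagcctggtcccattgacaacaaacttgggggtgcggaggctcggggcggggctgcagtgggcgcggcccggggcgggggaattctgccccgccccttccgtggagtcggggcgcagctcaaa
The element core TCACNCCAC was found in 0 of the 6 genes and in 1.44% of all 27025 genes with windows (1.24% of all 32851 windows). Without its last base, a motif added after the windows were read, it matched Srebf2 from 162 bases before the start, with an inverted CCAAT box (ATTGG) from 135 bases before it. TCACNCCA was found for 4.97% of all genes (4.36% of windows) and CCAAT, the NF-Y box, for 41.1% (37.4% of windows). A match is a stretch of letters, not a measured site.

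Insig1, an anchor that retains Scap when sterols are plentiful, was read by 3 probes. Its brightest probe gave 10.26 and 10.76 in lean FXR-WT and 9.12, 9.46 and 9.47 in obese FXR-WT livers, which do not overlap. That change of -1.16 (SE 0.26) missed the threshold (limma adjusted p = 0.0626). The probe ILMN_2606693 read 8.88 and 9.30 against 6.66, 6.99 and 7.30, and ILMN_1245272 read 8.79 and 9.16 against 6.86, 6.66 and 7.04. The first fell by 2.11 and the second fell by 2.12 (SE 0.23 for each, adjusted p = 0.00161 over all probes for each). All 3 probes thus ran the same way and followed each other over the arrays (Pearson r of 0.907 to 0.985 over 11 arrays), but the brightest probe gave a smaller change. With the mean of its probes in place of the brightest, Insig1 fell by 1.80 (adjusted p = 0.00388). Over all probes tested singly 6 of the 13 probes of the 7 genes passed, where 0.945% of all probes did.

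Insig1 and Rdh11 are shown next because both fell on more than one probe while their windows hold other motifs than the element core. Insig1 lies on chr5:28071162-28071411, forward strand, and the second of the 2 Rdh11 windows on chr12:79190962-79191211, reverse strand, with capitals as before:
Insig1: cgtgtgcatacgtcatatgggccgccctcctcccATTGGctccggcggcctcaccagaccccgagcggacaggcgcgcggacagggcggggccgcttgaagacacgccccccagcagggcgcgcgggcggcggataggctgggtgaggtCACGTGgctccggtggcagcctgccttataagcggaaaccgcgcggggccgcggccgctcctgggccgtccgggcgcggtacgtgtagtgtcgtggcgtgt
Rdh11: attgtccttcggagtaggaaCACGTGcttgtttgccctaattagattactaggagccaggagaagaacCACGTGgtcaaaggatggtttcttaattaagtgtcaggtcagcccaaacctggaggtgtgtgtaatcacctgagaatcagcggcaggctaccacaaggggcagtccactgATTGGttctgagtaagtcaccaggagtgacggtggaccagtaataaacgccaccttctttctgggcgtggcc
The E-box CACGTG, a palindrome that SREBPs can also bind, begins 101 bases before the Insig1 start and 230 and 182 bases before this Rdh11 start. It was found in windows of 3 of the 6 genes (Scap is the other) and for 8.09% of all genes (7.15% of windows). CCAAT was found for 5 of the 6 genes and the Sp1 box GGGCGG, not capitalised, for 5 of the 6, where 38.2% of all genes have it (35.7% of windows). The 6 genes have 12 windows between them, against 32851 for 27025 genes, so they had more windows per gene in which to match. No binding was measured at these windows.

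Insig2, the anchor whose liver transcript is known in mice to rise in fasting and fall with insulin, read 12.16 and 12.01 in lean and 13.54, 12.52 and 12.25 in obese FXR-WT livers. On this probe, its brightest, the groups did not overlap, but the spread came from 1 array, obese FXR-WT replicate 1, at 13.54. The change of 0.69 (SE 0.30) did not pass (limma adjusted p = 0.357), and without that array it was 0.30 (adjusted p = 0.436). The same array stood far above the others on both further probes: ILMN_1216822 gave 13.14 against 11.49 and 11.30, and ILMN_1234858 gave 11.32 against 8.26 and 7.68 in its own group. On the 10 other arrays ILMN_1234858 lay between 7.68 and 9.42. Obese FXR-WT replicate 1 also held the highest level of a list of 9 fasting genes, 0.81 above the mean of all arrays (log2), and the second lowest Dbp. The part of these in the Insig2 value was not tested.

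Srebf1 varied more between arrays of a group than between the FXR-WT groups. It read 9.48 and 10.12 in lean FXR-WT and 8.34, 10.12 and 9.96 in obese FXR-WT livers, so the groups overlap. The change was -0.32 (SE 0.54, limma adjusted p = 0.849), with a 95% confidence interval of -1.51 to 0.86. Its sign rested on obese FXR-WT replicate 1, since it was 0.24 without that array. The sources used here do not say whether its probe reads SREBP-1a, SREBP-1c or both. Scap, the escort itself, read 8.84 and 8.76 against 9.06, 8.72 and 8.71, a change of 0.029 (95% confidence interval -0.42 to 0.48), which turned to -0.086 without obese FXR-WT replicate 1 and to -0.0088 without lean FXR-WT replicate 2.

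Without overlap between the groups on the brightest probe, 4 of the 7 genes lay lower in obese FXR-WT livers, where 16.2% of all genes did. Insig2 lay higher on that probe only, where 16.7% of all genes did. Markers of other cells also differed between the FXR-WT groups. The summed log2 level of the neutrophil markers (11 of 11 measured) was 12.42 to 12.47 in lean and 13.48 to 13.86 in obese FXR-WT livers, and that of the stellate cell markers (6 of 6) was 12.87 to 13.37 and 13.32 to 13.57, with overlap. Cholangiocyte markers (2 of 4) were also higher in obese FXR-WT livers, at 9.38 on both lean arrays against 9.54 to 10.50. Lower without overlap were the erythroid markers (3 of 3), at 16.06 to 16.10 against 15.08 to 15.95, the endothelial markers (4 of 5), at 11.36 to 11.46 against 11.07 to 11.35, and the hepatocyte markers (6 of 6), at 16.36 to 16.38 against 16.17 to 16.25. Between obese FXR-K217R and lean FXR-K217Q livers the erythroid, hepatocyte and stellate cell markers went the same way. Neutrophil markers did not, at 10.82 to 11.68 against 11.55 to 12.50, nor did cholangiocyte markers, at 9.13 to 9.37 against 9.23 to 10.30. Endothelial markers also did not, at 11.12 to 11.40 against 10.90 to 11.26. The part of the cell markers in the falls was not tested.

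**Figure D2:**
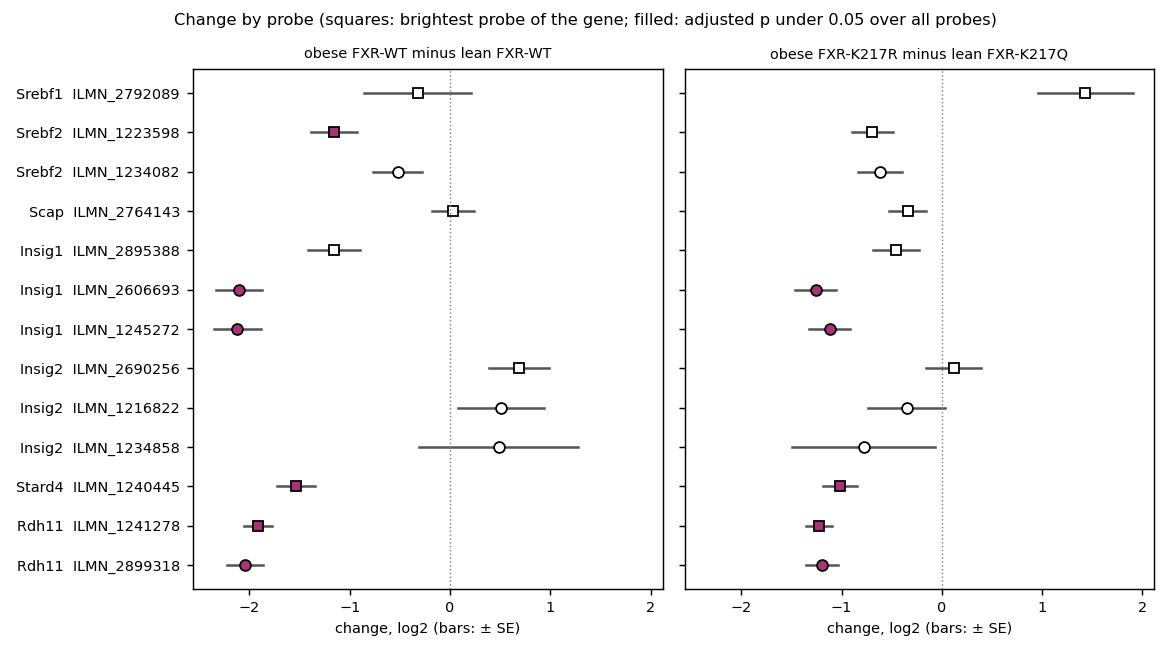
Change (log2) of each probe of the 7 genes with its SE, for obese minus lean with FXR-WT and for obese FXR-K217R minus lean FXR-K217Q. Squares are the brightest probes and filled symbols passed over all probes. The 2 dimmer Insig1 probes lie near -2.1 in the first panel, beyond the brightest at -1.16, and the 3 Insig2 probes take both signs in the second.

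The arrays that this comparison leaves out, obese FXR-K217R and lean FXR-K217Q, also differ in obesity, but at the same time in the FXR they carry, so both differences cannot be told apart there. This contrast was added after the values were seen. Stard4 and Rdh11 fell again and Srebf1 was higher in obese livers without passing. In limma 2 of 7 genes passed, both lower, where 0.491% of all genes passed and 0.233% passed as lower.

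Rdh11 read 10.77, 10.72 and 10.40 in lean FXR-K217Q and 9.37, 9.39 and 9.45 in obese FXR-K217R livers. No arrays overlapped, and the fall of 1.23 (SE 0.12, limma adjusted p = 0.00256) came with one of 1.20 on the other probe (adjusted p = 0.0103 over all probes). Stard4 read 9.62, 9.99 and 10.21 against 8.86, 8.94 and 8.96, again without overlap, a fall of 1.02 (SE 0.17, limma adjusted p = 0.0267). That call was lost in 8 of 11 fits without 1 array, with changes of -1.04 to -0.88. The adjusted p was 0.052 and 0.0521 without lean FXR-WT replicates 1 and 2, 0.0972 and 0.0633 without lean FXR-K217Q replicates 2 and 3, 0.0505 without obese FXR-WT replicate 2, and 0.12, 0.0745 and 0.0885 without obese FXR-K217R replicates 1, 2 and 3.

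Srebf2 read 8.15, 8.53 and 8.95 in lean FXR-K217Q against 7.57, 8.22 and 7.76 in obese FXR-K217R livers. The groups overlapped at 8.15 and 8.22, and the change of -0.69 (SE 0.21) did not pass (limma adjusted p = 0.189). Insig1 read 9.47, 10.18 and 10.32 against 9.36, 9.76 and 9.46 on its brightest probe, which overlap, a change of -0.46 (SE 0.23, limma adjusted p = 0.401). Its dimmer probes fell, with changes of -1.26 and -1.12 (SE 0.21 for each, adjusted p = 0.0279 and 0.0496 over all probes). In this contrast, too, the brightest Insig1 probe gave the smallest change, and 5 of the 13 probes passed, where 0.461% of all probes did.

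Srebf1 read 9.05, 9.02 and 7.71 in lean FXR-K217Q and 9.85, 9.85 and 10.38 in obese FXR-K217R livers, without overlap. The change of 1.43 (SE 0.48) did not pass (limma adjusted p = 0.234), and without lean FXR-K217Q replicate 3 it was 0.99 (adjusted p = 0.437). Insig2 changed by 0.12 and Scap by -0.34, neither past the threshold, and the other Insig2 probes gave -0.35 and -0.78. On the brightest probes groups did not overlap for 3 of 7 genes, where 18.8% of all genes did not.

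**Figure D3:**
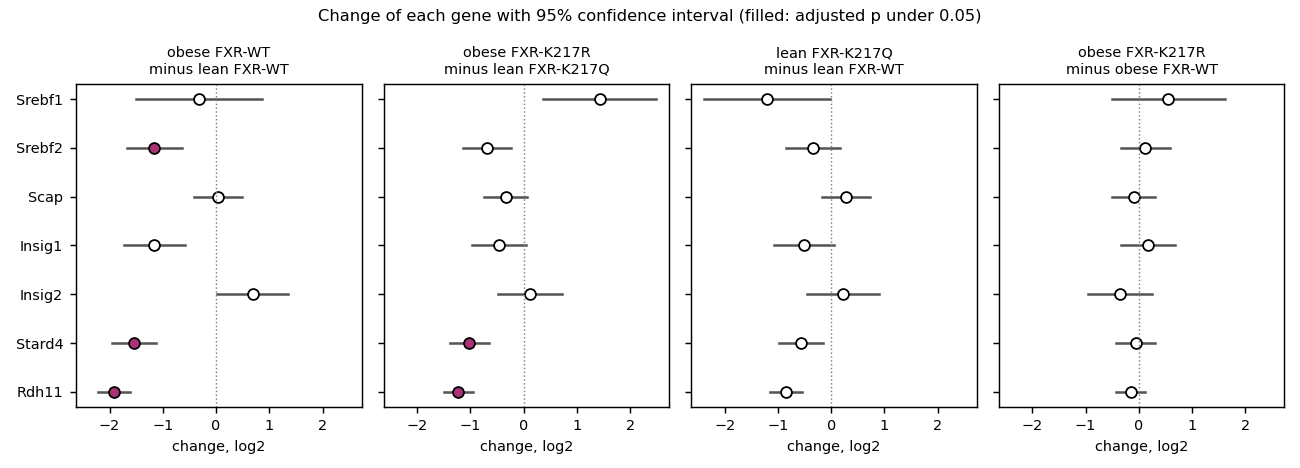
Change (log2) of each gene with its 95% confidence interval in the 4 contrasts of groups, filled where the adjusted p was under 0.05. Srebf2, Stard4 and Rdh11 passed for obese minus lean with FXR-WT, Stard4 and Rdh11 for obese FXR-K217R minus lean FXR-K217Q, and none for either mutant against FXR-WT.

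FXR-K217Q was then compared with FXR-WT in lean mice. None of the 7 genes passed (0 of 7 in limma, as 0% of all genes did), and 3 of 7 had an unadjusted p under 0.05, where 7.2% of all genes had. These were Rdh11, Stard4 and Srebf1, all with lower values with FXR-K217Q. The median change of the 7 was -0.52. This contrast shares its lean FXR-WT arrays with the FXR-WT comparison above, so the 2 sets of values are not independent.

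Rdh11 changed by -0.84 (SE 0.14, limma adjusted p = 0.149), the sixth smallest p-value of all genes, with 10.40 to 10.77 on the FXR-K217Q arrays against 11.39 and 11.56. Its other probe gave 9.08, 9.03 and 8.78 against 9.61 and 9.90, a change of -0.79 (SE 0.18, adjusted p = 0.339 over all probes). On both probes the 3 FXR-K217Q arrays lay under both FXR-WT arrays. Stard4 changed by -0.58 (SE 0.19, limma adjusted p = 0.506), also without overlap (9.62 to 10.21 against 10.52).

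Srebf1 had the largest change, -1.20 (SE 0.54, limma adjusted p = 0.68), and the widest interval, -2.39 to -0.018. Without lean FXR-K217Q replicate 3, whose Srebf1 of 7.71 was the lowest of all 11 arrays, it was -0.76 (adjusted p = 0.603). Replicates 1 and 2, at 9.05 and 9.02, still lay under both FXR-WT arrays (9.48 and 10.12). Insig1 changed by -0.52 and Srebf2 by -0.34, with overlapping groups on their brightest probes. The dimmer Insig1 probes did not overlap, with changes of -0.44 (ILMN_2606693) and -0.54 (ILMN_1245272). Their limma adjusted p were 0.728 and 0.642 over all probes. Scap was the only one of the 7 to lie higher on every FXR-K217Q array (9.13, 9.14 and 8.95 against 8.84 and 8.76), by 0.27 (95% confidence interval -0.18 to 0.73). On the brightest probes 4 of 7 genes lay without overlap, where 22.3% of all genes did.

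In obese mice the comparison was between FXR-K217R and FXR-WT. In limma 0 of 7 genes passed, where 0.0388% of all genes passed, and 0 of 7 had an unadjusted p under 0.05, where 4.41% had. The changes ran from -0.35 (Insig2) to 0.55 (Srebf1), and all adjusted p were 0.993 or more. The intervals of the brightest probes bound what could have been missed on them: -0.42 to 0.12 for Rdh11, -0.43 to 0.31 for Stard4, -0.33 to 0.58 for Srebf2 and -0.33 to 0.69 for Insig1. All were nearer to 0 than these genes' changes between lean and obese FXR-WT livers. Those of Srebf1 (-0.51 to 1.61), Insig2 (-0.95 to 0.25) and Scap (-0.50 to 0.31) were not, and took in values larger in size than these genes' own changes between the FXR-WT groups. The dimmer Insig1 probes gave larger changes, 0.41 (ILMN_2606693) and 0.46 (ILMN_1245272), with SE 0.21 for each. The dimmer Srebf2 probe gave -0.20 (SE 0.22). Of the 13 probes tested singly in limma, 1 (ILMN_1245272) had an unadjusted p under 0.05, where 4.38% of all probes had. Rdh11 alone did not overlap (9.37 to 9.45 against 9.50 to 9.63), where 9.85% of all genes did not, and its other probe lay the other way, at 0.057.

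For Srebf1 and Insig2 these values hung on obese FXR-WT replicate 1. Srebf1 went from 0.55 to -0.017 without it, and Insig2 from -0.35 to 0.035. Scap (-0.095) turned to 0.019 without it and to 0.12 without obese FXR-K217R replicate 1. Srebf2 (0.12) turned to -0.059 without obese FXR-K217R replicate 2, and Stard4 (-0.059) to 0.077 without obese FXR-WT replicate 3.

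The difference between the mutants' changes, FXR-K217R in obese minus FXR-K217Q in lean mice, was tested in the same fit. In limma 0 of 7 genes passed, as 0% of all genes did, and 2 of 7 had an unadjusted p under 0.05, where 4.71% of all genes had. These were Rdh11 at 0.69 (SE 0.18, adjusted p = 0.89) and Srebf1 at 1.75 (SE 0.72, adjusted p = 1). Of the 13 probes tested singly 0 passed and 5 had an unadjusted p under 0.05, where 4.55% of all probes had. Besides those of Srebf1 and Rdh11 these were the dimmer Insig1 probes, at 0.85 (SE 0.31) for ILMN_2606693 and 1.00 (SE 0.31) for ILMN_1245272, both with adjusted p = 1. Without both arrays that stand apart the Srebf1 difference was 0.74 (adjusted p = 0.66), and that of Rdh11 was 0.61 (adjusted p = 0.503).

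The order of group means put the genes in different patterns. Rdh11 went from lean FXR-WT (11.47 ± 0.12 SD, n = 2) through lean FXR-K217Q (10.63 ± 0.20 SD, n = 3) to obese FXR-WT (9.56 ± 0.06 SD, n = 3) and obese FXR-K217R (9.41 ± 0.04 SD, n = 3). Stard4 followed the same order, with 10.52, 9.94, 8.98 and 8.92. Of the neighbours in that order, the tests of lean FXR-K217Q against lean FXR-WT and of the obese groups against each other were not past the threshold for either gene.

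Srebf2 and Insig1 also had lean FXR-WT highest and lean FXR-K217Q next, with means of 8.89 and 8.55 for Srebf2 and 10.51 and 9.99 for Insig1. Their lowest group was obese FXR-WT (7.73 and 9.35), a little under obese FXR-K217R (7.85 and 9.53). Srebf1 had its own order, with lean FXR-K217Q lowest (8.59 ± 0.76 SD, n = 3) and obese FXR-K217R highest (10.03 ± 0.31 SD, n = 3), and none of the 4 pairs of groups tested passed. Insig2 ran from 12.09 in lean FXR-WT to 12.77 in obese FXR-WT livers, and Scap from 8.73 to 9.07, with no pair of groups tested past the threshold. Over the 11 arrays Srebf1 and Rdh11 varied more than 98.8% of all genes (SD 0.833 and 0.839), and Scap more than 53.1% (SD 0.243).

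The known targets of the SREBPs were read beside their regulators. Of 23 listed genes of sterol synthesis and uptake 21 were measured, and in obese against lean FXR-WT livers 16 of 21 fell, 0 rose and 5 did not pass, with a median of -2.27. Without single arrays 12 to 17 fell, and without both arrays that stand apart 16. Those with the largest falls were Sqle (squalene epoxidase) at -4.60 (limma adjusted p = 0.000399), Cyp51 (lanosterol demethylase) at -3.84 (adjusted p = 0.000111), Idi1 (isopentenyl diphosphate isomerase) at -3.82 (adjusted p = 0.000212) and Fdps (farnesyl diphosphate synthase) at -3.63 (adjusted p = 0.000111). The changes of Srebf2, Stard4 and Rdh11 (-1.92 to -1.16) were thus smaller than the list's median, though probes differ in how far they can respond. With obese FXR-K217R and lean FXR-K217Q 11 of 21 fell and 0 rose, with a median of -1.22. That count was 7 without obese FXR-K217R replicate 1 and at most 12 in the other fits without 1 array.

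In the mutant comparisons the sterol genes also gave no call: with lean FXR-K217Q 0 of 21 passed, with a median of -0.76 and 21 of 21 values below 0, where 50.6% of all genes lay below 0. An unadjusted p under 0.05 was found for 15 of 21, where 7.2% of all genes had one. This comparison shares its lean FXR-WT arrays with the FXR-WT one. With obese FXR-K217R 0 of 21 passed, with a median of 0.15 and 2 of 21 at an unadjusted p under 0.05, where 4.41% of all genes were. The lean values nearest to a call were Acat2 (acetoacetyl-CoA thiolase), -0.82, and Dhcr7 (the last step to cholesterol), -0.84, both with limma adjusted p = 0.149. In obese livers they were Dhcr7, 0.40, and Fdps, 0.53, both with adjusted p = 0.993.

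Fatty acid and NADPH genes driven by SREBP-1 did not share the sterol genes' fall. Of 16 listed 15 were measured, and in obese against lean FXR-WT livers 2 rose, 1 fell and 12 did not pass, with a median of -0.044. Scd1, the desaturase that makes oleate, rose by 1.37 (limma adjusted p = 0.00241) and Elovl5, a fatty acid elongase, by 0.69 (adjusted p = 0.0315). Acss2, which makes acetyl-CoA from acetate, fell by 1.12 (adjusted p = 0.0426). Scd1 passed without any single array. Elovl5 and Acss2 lost their calls without either lean FXR-WT array (changes of 0.70 and 0.68 for Elovl5, -1.15 and -1.07 for Acss2). They also lost them without each obese FXR-WT array and without lean FXR-K217Q replicate 2 (adjusted p = 0.0512 for Elovl5 and 0.0579 for Acss2). Acss2 further lost its call without each obese FXR-K217R array (adjusted p = 0.0642, 0.0616 and 0.0653 without replicates 1, 2 and 3). With obese FXR-K217R and lean FXR-K217Q 1 of 15 passed, Scd1, which rose by 1.20 (adjusted p = 0.00476), and the median was 0.40, or 0.19 without lean FXR-K217Q replicate 3. In the lean comparison 0 of 15 passed (median -0.42, with Acacb, which makes malonyl-CoA at mitochondria, at -0.42 and Pnpla3, a lipid droplet protein, at -0.70) and in the obese one 0 of 15 (median 0.23, with the desaturases Fads1 and Fads2 at 0.26 and 0.46).

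Factors that cleave, move or degrade the SREBPs gave no call. Of 21 listed 18 were measured, and 0 of 18 passed in any of the comparisons, with medians of 0.0080 between obese and lean FXR-WT, -0.017 between the lean groups, -0.044 between the obese groups and -0.015 between obese FXR-K217R and lean FXR-K217Q. The value nearest to a call between the FXR-WT groups was that of Rnf139, a ubiquitin ligase of the endoplasmic reticulum (-0.33, limma adjusted p = 0.369). Single members went both ways around these medians: between obese FXR-K217R and lean FXR-K217Q the values ran from -0.72 to 0.52. In that contrast 3 of 18 had an unadjusted p under 0.05, where 14% of all genes had. The lowest value was that of Sec23a, a coat protein of the vesicles that leave the endoplasmic reticulum (limma adjusted p = 0.205). It was 0.55 in lean FXR-K217Q against FXR-WT livers (adjusted p = 0.69). In these counts Scap sits with them rather than with the SREBP targets.

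LXR and its targets, which respond to oxysterols, gave 0 of 8 measured genes past the threshold in each comparison (9 listed). Between obese and lean FXR-WT livers their median was 0.24, and the sterol exporters Abcg5 and Abcg8 gave 0.82 and 0.86 (limma adjusted p = 0.104 and 0.384). Both passed without both arrays that stand apart, a setting in which 467 genes passed over all genes, in place of 185. Of 10 fasting genes 9 were measured, and in the same comparison 3 rose and 0 fell. Among them Fgf21, a liver hormone, rose by 3.25 (limma adjusted p = 0.018) and Pdk4, which restrains pyruvate use, by 2.35 (adjusted p = 0.0428). These calls hung on few arrays: 0 of 9 passed without lean FXR-WT replicate 1, lean FXR-WT replicate 2 or obese FXR-WT replicate 2, 1 (Fgf21) without lean FXR-K217Q replicate 1, obese FXR-WT replicate 3 or any obese FXR-K217R array, and 2 without obese FXR-WT replicate 1, where Pdk4 lost its call (adjusted p = 0.0917). Of 9 clock genes 8 were measured and 0 passed in any comparison. Without both arrays that stand apart 3 of 8 passed between the FXR-WT groups, Dbp as higher and the core clock activators Arntl and Clock as lower in obese livers. Those arrays were set apart by Dbp, itself on the clock list, so leaving them out narrows its spread within groups.

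**Figure D4:**
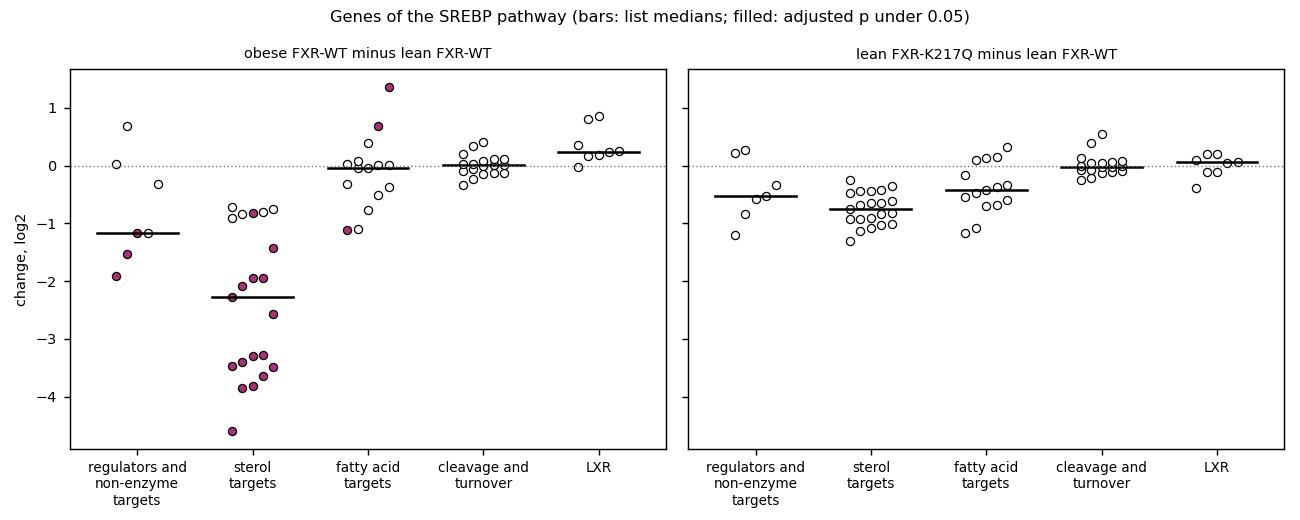
Change (log2) of the genes in each list for obese minus lean with FXR-WT and for lean FXR-K217Q minus FXR-WT. Each point is 1 gene, bars are medians, and filled points have an adjusted p under 0.05. In the first panel the sterol targets reach -4.60 while the cleavage and turnover factors stay close to 0.

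Array by array, the regulators went with different target lists. As a description over 11 arrays, which share group and obesity, the Pearson r with the mean of the sterol list was 0.946 for Srebf2, 0.892 for Insig1, 0.980 for Stard4 and 0.955 for Rdh11, and -0.274 for Srebf1. Srebf1 had its highest r, 0.867, with the fatty acid list. On lean FXR-K217Q replicate 3 the fatty acid list lay 0.72 below the mean of all arrays and Srebf1 was lowest, and without that array the last r was 0.758 over 10 arrays.

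Within groups the sterol genes did not all move together. After each group's mean was taken off, the Pearson r over 11 arrays was 0.802 between Srebf2 and Insig1 and 0.762 between Stard4 and Insig1, but -0.701 between Rdh11 and Stard4 and -0.596 between Rdh11 and Srebf2. Both negative values leaned on lean FXR-K217Q. There replicate 3 had the highest Srebf2 (8.95), Insig1 (10.32) and Stard4 (10.21) of the group and the lowest Rdh11 (10.40). The SD of Rdh11 was 0.20 in that group and 0.04 to 0.12 in the others. These r were not taken without replicate 3 of lean FXR-K217Q. The same array is one of the 2 with low Dbp.

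**Figure D5:**
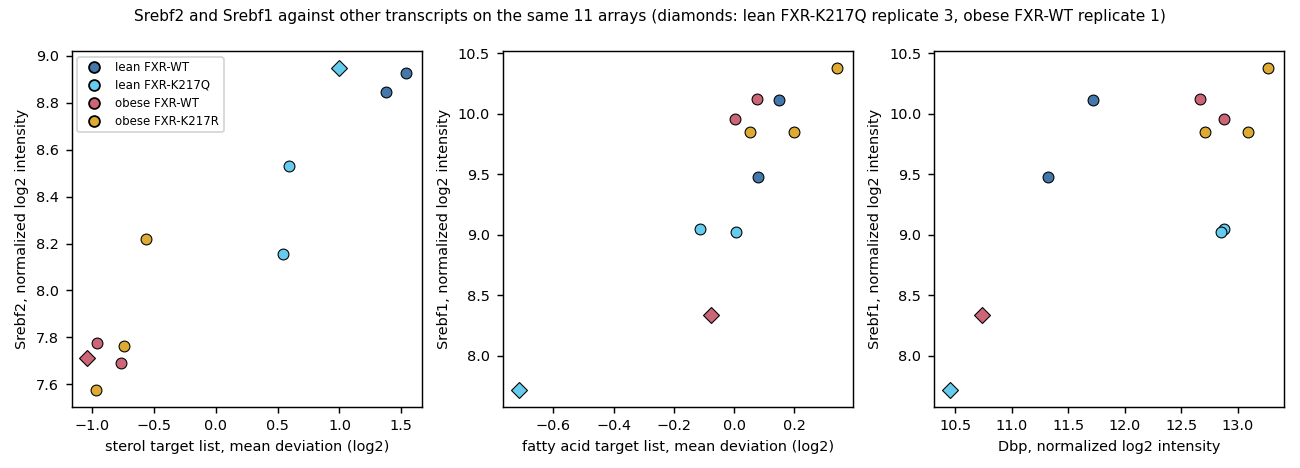
Srebf2 against the mean deviation of the sterol list, and Srebf1 against the fatty acid list and against Dbp, on the same 11 arrays (all log2). In the right panel the 2 diamonds have the lowest Dbp (10.45 and 10.74) and the lowest Srebf1.

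The genes with the most similar profiles over the 11 arrays were taken by Pearson r, without a test. For Stard4 they were Mmab (0.991) and Idi1 (0.977), for Srebf2 Os9 (0.970), Hsd17b7 (0.964) and Sc4mol (now Msmo1, 0.959), and for Insig1 Slc19a2 (0.945) and Homer1 (0.940). For Rdh11 they were Ppp4r4 (0.960), Mmab (0.955) and Mocs1 (0.954). Once the group means were taken off, the r of Rdh11 was 0.448 with Ppp4r4, -0.591 with Mmab and 0.0727 with Mocs1. Its likeness to Mmab and Mocs1 was thus through the group means only. For Srebf1 they were Arhgap26 (0.908), Adam11 (0.890) and Adh1 (0.890). For Insig2 they were Adssl1 (0.969), B4galt5 (0.957) and Ets2 (0.938), and for Scap Gstt2 (0.880), Dlm1-pending (0.861) and Ugt1a5 (0.861).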

How the data were processed

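Per the file headers, the deposited non-normalized table holds 4 columns per array: the mean intensity over beads, the detection p-value, the number of beads and their standard error. The labels say that cRNA was biotinylated, and the sources used here do not name the bead software. A second deposited table holds the authors' normalized log2 values, for which the submitters' processing notes name limma 3.12.3. These differ by at most 0.0271 from the values computed here.

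Here neqc (limma 3.58.1, R 4.3.3, offset 16) corrected the background of the intensities and quantile-normalized them. Of the probes, 21485 were detected (p-value under 0.05) on 2 or more arrays, and the brightest probe of each symbol (highest mean over all arrays) was tested, 15469 in all. One limma model (lmFit, eBayes) with a mean for each of the 4 groups was fitted to all 11 arrays, so groups share 1 estimate of the spread. Tests are two-sided, with Benjamini-Hochberg adjustment at 5% FDR within each contrast. Probes were also tested singly over all 21485. The procedure was tested on simulated data.

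The 7 genes, the lists and the naming rule were chosen with earlier results of these data known. The rule names every probe of the 7 genes, and in each list the 4 largest changes past 5% FDR, or where there are none the 2 genes of smallest unadjusted p. For each of the 7 it also names the 3 genes with the highest Pearson r, without clone and locus symbols. Some genes that the rule names are not reported here. Dbp and the genes of the fasting list beside Insig2 were set there after their values were seen. The contrast of obese FXR-K217R with lean FXR-K217Q, the motif TCACNCCA and the lists' counts without single arrays or without both arrays that stand apart were added after the values were seen. Promoter windows are RefSeq's, build GRCm38.p6. The number of arrays limits the precision.

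Same-numbered arrays of different groups did not deviate together (correlations of their deviations from the group means -0.107 to 0.234), so replicate numbers were not used as pairs.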

Additional observations from a re-analysis of the deposited data

How the results depend on the processing

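Of the 7 genes' calls, that of Rdh11 between obese and lean FXR-WT livers held in all 23 alternative settings (changes of -2.01 to -1.76, adjusted p at most 0.00508), as did its call for obese FXR-K217R minus lean FXR-K217Q (-1.34 to -1.09, adjusted p at most 0.0225). Between FXR-WT groups Srebf2 lost its call in 10 of 23 settings, among them the mean of all its probes (-0.84, adjusted p = 0.107) and no detection filter (adjusted p = 0.0619). Insig1 passed in 8 of 23, among them no background correction (adjusted p = 0.046), an offset of 50 (0.0404) and array weights (0.031). Leaving out single arrays let it pass without lean FXR-K217Q replicate 1 (0.028) or 3 (0.0459). The number of the 7 genes past the threshold ran from 1 to 4 without single arrays. It was 1, Rdh11, without lean FXR-WT replicate 2, which leaves a lone lean FXR-WT array that is assumed to vary like the other groups. For obese FXR-K217R minus lean FXR-K217Q it ran from 1 to 2, was 1 with median centring in place of the quantile step or with only the groups compared, and was 3 (Insig1, Rdh11 and Stard4) with each probe tested singly. In the other comparisons it was 0 throughout.

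The median change of the 7 genes between FXR-WT groups was -0.84 with the mean of all probes and -0.82 with no background correction, and -1.20 to -0.91 without single arrays. It was -0.68 to -0.26 without single arrays for lean FXR-K217Q, -0.08 to 0.12 for obese FXR-K217R and 0.36 to 0.65 for the difference of both. For obese FXR-K217R minus lean FXR-K217Q it was -0.65 with the mean of all probes and -0.72 to -0.36 without single arrays. Small changes turned sign. With the mean of all probes Srebf2 gave -0.038 for obese FXR-K217R minus FXR-WT and Insig2 -0.34 for obese FXR-K217R minus lean FXR-K217Q. With array weights Scap gave -0.026 between FXR-WT groups. Without both arrays that stand apart, Srebf1 gave 0.24 and Scap -0.086 between FXR-WT groups, and Srebf1 -0.017, Insig2 0.035 and Scap 0.019 for obese FXR-K217R minus FXR-WT. Without single arrays Srebf1 ran from -0.65 to 0.24 and Scap from -0.086 to 0.091 between FXR-WT groups. For obese FXR-K217R minus FXR-WT the ranges were -0.017 to 0.87 (Srebf1), -0.059 to 0.26 (Srebf2), -0.24 to 0.12 (Scap), -0.61 to 0.035 (Insig2) and -0.18 to 0.077 (Stard4). The cause of these moves was not tested. The median of all genes moved by at most 0.0559 under any scaling.

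With the replicate number as a block, the change of Srebf2 between FXR-WT groups was -1.21 and lost its call (adjusted p = 0.061), that of Insig1 was -1.22 and passed (adjusted p = 0.0252), and no other call of the 7 genes changed. The counts of the 7 genes past the threshold were 3, 2 and 0 as without the block, and their medians were -1.21 between FXR-WT groups, -0.58 for lean FXR-K217Q and 0.61 for the difference. Over all genes the block gave 102 calls between FXR-WT groups in place of 185, and 3 in place of 6 for obese FXR-K217R. The count between FXR-WT groups ran from 31 without lean FXR-WT replicate 2 to 514 with array weights, and was 467 without both arrays that stand apart and 110 with only the groups compared.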

Other observations

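The 3 Insig2 probes did not order the arrays alike. Over 11 arrays Spearman's rho was 0.336 between ILMN_2690256 and ILMN_1216822, -0.0545 between ILMN_2690256 and ILMN_1234858 and 0.800 between ILMN_1216822 and ILMN_1234858. The Pearson r of the same pairs, which weights obese FXR-WT replicate 1 heavily, was 0.847, 0.757 and 0.974. The 2 probes of Srebf2 had an r of 0.812 and those of Rdh11 0.985.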
